A study of Homo sapiens with 2 samples.

Results

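RAB proteins are small GTPases that direct membrane traffic between compartments. Here they were taken as every gene whose symbol is RAB followed by a number and at most a letter and a digit, with no RAB-binding or RAB-modifying gene included. Of 19775 genes with a probe set of their own on the array, 57 were RAB genes, covered by 138 of 54675 probe sets. HT-29, a human colorectal adenocarcinoma cell line, was compared in 2 growth forms: spheroids (1 array) and monolayer cells of the same line (1 array). The methods describe spheroids in low-adhesion plates in serum-free stem cell medium (SCM) with B27, EGF and FGF, counted on day 5. Monolayer cells were passaged on tissue culture plates in DMEM/F-12 with fetal bovine serum. The microarray section gives no medium, plate or harvest day, so these details, day 5 included, are taken from the other sections. The labels name no engineered change in either culture, and both come from 1 long-established line. Medium, serum and growth form differed together and cannot be told apart.

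A RAB protein works as a switch. It holds GTP and sits on a membrane in its active state, where it recruits effectors such as tethers, motors and sorting proteins, and it is drawn off the membrane by GDI once GTPase-activating proteins (GAPs) have turned it off. Exchange factors load it with GTP again. The membrane anchor is a geranylgeranyl lipid, an isoprenoid product of the mevalonate pathway that RAB geranylgeranyl transferase adds to C-terminal cysteines with the help of a RAB escort protein. In gut epithelium RAB proteins are known for sorting cargo to the apical and basolateral sides, for junction assembly and for recycling.

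The value of each probe set is a MAS5 signal, an intensity on a linear scale that the authors computed from the perfect match and mismatch probes of the array. The trimmed mean was 500.1 on each array, and the medians were 64.4 on the spheroid array and 61.1 on the monolayer array. A floor of 62.7, which is the 50th percentile over both arrays, replaced any lower signal ahead of the log2 step, and differences are spheroid minus monolayer. The brightest probe set stood for a gene. All 18 hybridisation spike-in probe sets, which report RNA added in equal amounts, had lower signals in spheroids, by a mean of -0.25 on the log2 scale. Of 12 markers of colonic epithelium, 6 were above the floor on both arrays, among them EPCAM, CDH1 and the keratins KRT8, KRT18, KRT19 and KRT20. CDX2, VIL1 and CEACAM5 passed it on 1 array, and CDX1, CDH17 and LGALS4, which mark intestinal cells, on neither. Over all genes, 11555 of 19775 were above the floor on both arrays. EPCAM, CDH1 and these keratins were thus present on both arrays, KRT20 at 218.4 in spheroids and 99.6 in monolayer. The other markers of the list passed the floor on 1 array or on neither. The list therefore bears out the colonic origin that the labels give only in part. The summed signal of these markers was 76155 on the spheroid array and 86222 on the monolayer array. Of 11 measured markers of blood, endothelial and connective tissue cells, PECAM1 and COL1A1 were above the floor on both arrays, DES and COL1A2 on 1, and the others, PTPRC included, on neither; their sum was 2347 in spheroids and 1886 in monolayer. As RNA came from whole cultures, fewer cells of a type and less RNA per cell cannot be told apart.

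Each condition has 1 array, so that no difference given here could be checked against replicates or tested. The only spread at hand was that between probe sets of one gene, whose log2 differences had an SD of 0.41 over 5506 genes. It does not hold the variation between cultures.

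To place the extremes of the family on the genome, promoters were read from a table of RefSeq promoters (GRCh38.p14). That table does not cover every gene. It holds 1 or more starts for 45 of the 57 RAB genes and 64 RAB promoters in all. Shown are the 250 bases before the start for the highest pair and the lowest pair of RAB genes with an entry: RAB27B and RAB18, higher in spheroids, and RAB6B and RAB5C, lower. For RAB27B and RAB6B the table has 2 starts, of which the first is printed. Each run reads 5′ to 3′ in the direction of the gene, and capitals mark GC boxes (GGGCGG on either strand, the core bound by SP family factors) and CCAAT boxes (CCAAT on either strand).
RAB27B, chr18:54717607-54717856, plus strand: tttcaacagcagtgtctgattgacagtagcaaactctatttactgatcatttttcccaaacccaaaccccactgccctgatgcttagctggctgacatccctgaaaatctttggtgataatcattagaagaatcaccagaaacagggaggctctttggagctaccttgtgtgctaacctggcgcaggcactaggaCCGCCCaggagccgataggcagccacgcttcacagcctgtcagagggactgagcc
RAB18, chr10:27504054-27504303, plus strand: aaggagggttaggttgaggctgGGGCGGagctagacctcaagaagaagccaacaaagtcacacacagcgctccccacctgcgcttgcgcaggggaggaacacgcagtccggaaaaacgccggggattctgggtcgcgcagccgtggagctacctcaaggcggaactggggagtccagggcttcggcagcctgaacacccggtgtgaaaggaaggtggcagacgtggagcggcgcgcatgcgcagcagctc
RAB6B, chr3:133895883-133896132, minus strand: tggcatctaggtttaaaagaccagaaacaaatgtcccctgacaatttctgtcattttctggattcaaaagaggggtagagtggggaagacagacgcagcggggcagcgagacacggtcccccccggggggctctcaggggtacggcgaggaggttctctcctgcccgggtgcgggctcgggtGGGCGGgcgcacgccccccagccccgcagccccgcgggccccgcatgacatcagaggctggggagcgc
RAB5C, chr17:42154990-42155239, minus strand: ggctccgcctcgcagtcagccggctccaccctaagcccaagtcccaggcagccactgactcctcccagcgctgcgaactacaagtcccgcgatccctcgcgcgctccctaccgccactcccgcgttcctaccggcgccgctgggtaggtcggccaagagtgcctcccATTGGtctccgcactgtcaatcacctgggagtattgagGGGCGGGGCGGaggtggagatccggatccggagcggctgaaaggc

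All 4 held a GC box. RAB5C held 2 that run into each other and a CCAAT box, and the RAB27B stretch had the lowest GC content of the 4, at 50.4%, against 63.6% for RAB18, 65.2% for RAB6B and 67.6% for RAB5C. Over the family, GC boxes lay in 48 of 64 RAB promoters, or 75%, against 42.6% of all 35116 promoters of the table, and the median GC content was 64.8% in RAB promoters and 58% in all. The 31 RAB genes with such a box that were above the floor on both arrays split into 13 higher and 18 lower in spheroids, with a median log2 difference of -0.11, which is also the median of the whole family. CCAAT boxes were in 29.7% of RAB promoters and in 32.0% of all. The E-box CACGTG, the core of the sites for MYC, clock and lysosomal gene factors, was in 7.81% of RAB promoters and in 6.34% of all. Its RAB genes were RAB4A, RAB5A, RAB21, RAB24 and RAB31, of which 3 were higher and 2 lower. The shorter ACGTG, the core of hypoxia response elements, which lies within every CACGTG, was in 29.7% of RAB promoters and in 18.5% of all. One spelling of the sterol element to which SREBP binds, TCACNCCAC, was found in 1 RAB promoter, that of RAB4B, or 1.56%, against 0.883% of all. All motifs were searched on both strands, and a match is a description of letters and not of a bound site.

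Most RAB genes were measured in HT-29 cells in both growth forms, and few differed by much. Above the floor on both arrays were 45 of the 57, RAB33A and RAB43 passed it on 1, and RAB3C, RAB4B, RAB7B, RAB9B, RAB11B, RAB32, RAB39A, RAB39B, RAB40A and RAB42 on neither. The 47 measured genes stand beside 13183 of 19775 genes measured on the array as a whole (66.7%). Of these 47, 0 were at least 2-fold higher in spheroids, where 2.53% of all measured genes were, and 2, RAB6B and RAB37, were at least 2-fold lower, where 3.08% of all were. On a scale that sets the spike-ins equal, 1 was lower, since RAB37 was then at -0.97 on the log2 scale. At 1.5-fold, 1 RAB gene was higher (RAB36; 9.53% of all genes) and 5 were lower (RAB6B, RAB37, RAB5C, RAB26 and, as a bound, RAB33A; 11.6% of all).

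**Figure D1:**
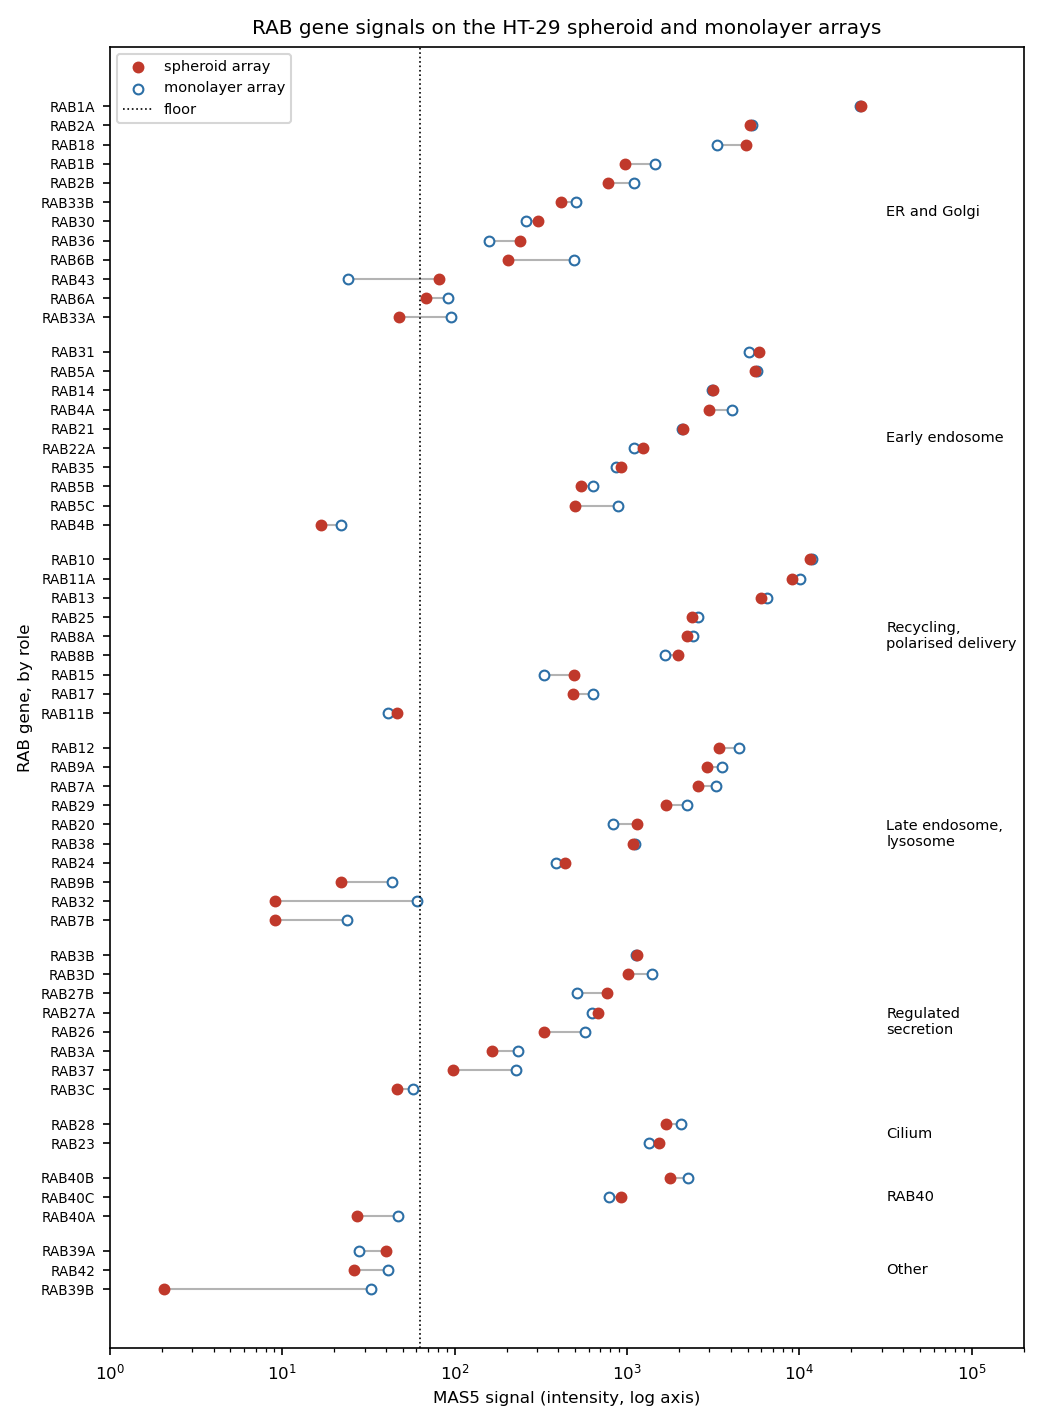
MAS5 signals (x axis, log scale) of the 57 RAB genes (y axis, grouped by role) on the spheroid array (filled red) and the monolayer array (open blue), joined by a grey line, with the floor of 62.7 dotted. Both arrays carried most genes above the floor at nearly the same signal, and the longest lines above it belong to RAB6B and RAB37.

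Among the 45 RAB genes above the floor on both arrays, 18 were higher and 27 lower in spheroids, so that 60% lay under 0, where 55.5% of all such genes did. Their median log2 difference was -0.11, against -0.06 over all 11555 genes, and their SD was 0.42, against 0.49. Within 0.5 of 0 on the log2 scale lay 35 of 45, or 77.8%, against 74.0% of all genes. From the 5th to the 95th percentile, RAB genes ran from -0.82 to 0.57, and all genes from -0.82 to 0.78. The direction of the family hung on the scale of the arrays: with the spike-ins set equal, every difference moved up by 0.25, 27 RAB genes were above 0 and 18 under it, and the medians were 0.14 for these RAB genes and 0.19 for the 11555 genes. The change of scale moves every gene by the same amount, so the RAB median stayed slightly under that of all genes by construction.

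**Figure D2:**
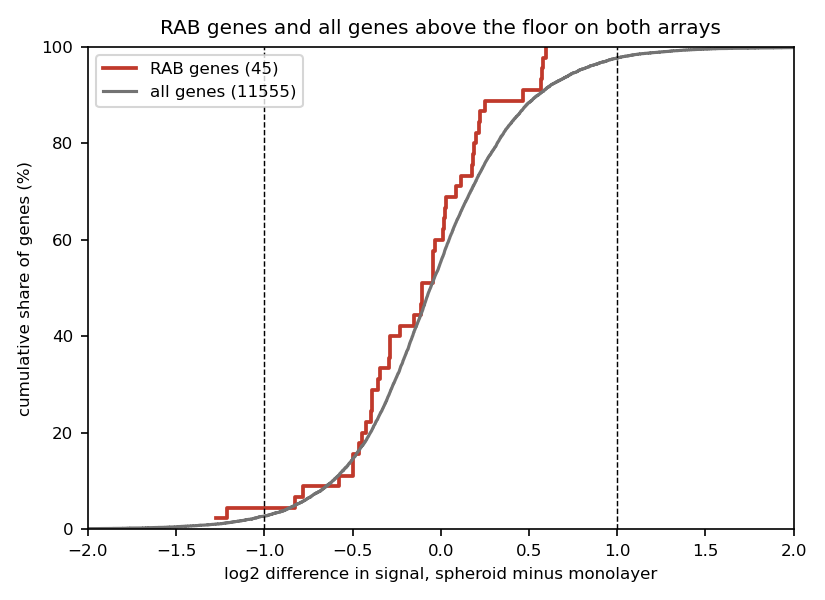
Cumulative share of genes (y axis, %) by log2 difference in signal, spheroid minus monolayer (x axis), for 45 RAB genes (red) and 11555 genes (grey) above the floor on both arrays, with dashed lines at 2-fold. The curves run close together up to 0, and above it the red curve ends at 0.60, short of 2-fold.

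RAB genes of the endoplasmic reticulum (ER) and Golgi held both extremes of the family. Of 12 measured members, 4 were higher and 6 lower among the 10 above the floor on both arrays, with a median log2 difference of -0.16. RAB6A counted as lower through a probe set near the floor, with 68.4 in spheroids and 92.0 in monolayer (-0.43). The probe sets above the floor that it shares with RAB6C or RAB6D gave 0.06, 0.08 and 1.20. RAB6B, the paralogue of RAB6A that is known best from neurons and their retrograde Golgi traffic, had a signal of 204.2 in spheroids and 494.7 in monolayer, or 2.42-fold lower (log2 difference -1.28). Its other probe sets gave 246.3 in spheroids against 383.5 in monolayer (-0.64) and 168.7 against 248.4 (-0.56). All 3 were thus lower in spheroids, but only 1 passed 2-fold.

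RAB1B, which with RAB1A drives transport out of the ER, had a signal of 974.9 in spheroids and 1455 in monolayer (log2 difference -0.58), from its only probe set. RAB1A itself was level, at 22621 in spheroids and 22439 in monolayer (0.01). RAB2B, of the pair that acts between the ER and the Golgi, was at 775.0 in spheroids and 1096 in monolayer (-0.50), and RAB2A at 5175 in spheroids and 5303 in monolayer (-0.04). By the brightest probe sets, the A member hardly differed in both pairs and the B member was lower. RAB2B, like RAB1B, has 1 probe set, and the 6 of RAB2A ran from -1.21 to 0.24, with 4 of them lower.

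On the higher side stood RAB36, a Golgi RAB known to affect the position of late endosomes, with a signal of 239.0 in spheroids and 158.2 in monolayer, 1.51-fold higher (log2 difference 0.60), from 1 probe set. RAB18, which sits on the ER and on lipid droplets, was singled out after its values were seen, because each of the 5 probe sets that passed the floor was higher in spheroids. The brightest gave 4927 in spheroids and 3322 in monolayer (0.57), the next pair 3888 against 3211 (0.28) and 2166 against 1705 (0.35). The dimmest pair was past 2-fold, with 264.2 in spheroids against 131.0 in monolayer (1.01) and 172.7 against 65.5 (1.40), where the monolayer signal was close to the floor. RAB30, a Golgi RAB also singled out afterwards, was at 304.5 in spheroids and 260.9 in monolayer (0.22), and 1 of its dimmer probe sets read 220.7 against 99.1 (1.16). RAB33A, kin to the autophagy-linked RAB33B, was under the floor in spheroids at 47.3, against 94.9 in monolayer, at least 1.51-fold lower. RAB43, a Golgi RAB, had the reverse pattern, with 81.6 in spheroids and a monolayer signal of 23.9, under the floor, which gives at least 1.30-fold higher. Both lie near the floor on the array that passed it, and the level that 95% of olfactory receptor probe sets stay under was 84.7.

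RAB genes of the early endosome, where cargo taken up from the surface is first sorted, held RAB5C and RAB4A on the lower side and no member far above 0. Of 9 measured members 5 were higher and 4 lower, with a median log2 difference of 0.02. RAB5C, one of 3 RAB5 proteins that drive fusion of early endosomes, was at 496.3 in spheroids and 880.9 in monolayer, 1.78-fold lower (log2 difference -0.83), and its other probe set gave -0.61. RAB5B was at 539.9 in spheroids and 633.6 in monolayer (-0.23), and RAB5A at 5542 in spheroids and 5712 in monolayer (-0.04). Only RAB5C of the 3 stood apart by more than the spread between probe sets, which is narrower than that of a gap between 2 genes.

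RAB4A, which returns receptors quickly from early endosomes to the surface, had 2970 in spheroids and 4090 in monolayer (log2 difference -0.46). All 3 of its probe sets were lower, between -0.39 and -0.49. RAB14, which links early endosomes with the Golgi, was at 3163 in spheroids and 3095 in monolayer (0.03), but its other probe sets gave -0.37 and -0.65, so its direction depends on the probe set. RAB21, RAB22A, RAB31 and RAB35, which also sort or recycle endosomal cargo, lay between 0.02 and 0.20. For RAB21 and RAB22A all 3 probe sets were higher, up to 0.55 for RAB21 and 0.94 for RAB22A.

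Recycling and polarised delivery, the step most tied to epithelial sidedness, held 8 measured RAB genes, of which 2 were higher and 6 lower with a median log2 difference of -0.11. RAB15, known from recycling endosomes, had a signal of 490.2 in spheroids and 329.4 in monolayer, 1.49-fold higher (0.57). Its dimmer probe set read 296.8 in spheroids and 103.4 in monolayer (1.52), the largest positive difference of any RAB probe set measured on both arrays. The probe sets shared a direction and differed in size by more than 0.41.

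RAB17, an epithelial RAB of the apical recycling route, was at 484.2 in spheroids and 634.4 in monolayer (log2 difference -0.39), from 1 probe set. RAB8B, which with RAB8A and RAB10 carries cargo from the Golgi and recycling endosomes to the membrane, was at 1964 in spheroids and 1653 in monolayer (0.25). One dimmer probe set of RAB8B gave -0.14. The core epithelial members hardly differed: RAB11A and RAB25 of the apical recycling endosome gave -0.15 and -0.11, RAB8A and RAB10 -0.11 and -0.04, and RAB13, a tight junction RAB, -0.11. RAB11A had 9065 in spheroids and 10087 in monolayer, RAB25 2396 and 2584, and RAB13 5992 and 6466, in the same order of growth forms.

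RAB genes of late endosomes, lysosomes and autophagy lay within 0.5 of 0 without exception, with 2 higher and 5 lower of 7 measured and a median log2 difference of -0.29. RAB29, a RAB near the Golgi and lysosomes that is known for recruiting the kinase LRRK2, was at 1686 in spheroids and 2218 in monolayer (-0.40), with both probe sets lower. RAB12, which sends transferrin receptor to lysosomes, was at 3406 in spheroids and 4457 in monolayer (-0.39), and a dimmer probe set read 325.1 against 220.0 (0.56). RAB20, which acts in phagosome maturation, was on the other side, with 1145 in spheroids and 829.7 in monolayer (0.46).

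RAB7A, the main RAB of late endosomes, had 2579 in spheroids and 3302 in monolayer (log2 difference -0.36). Its measured probe sets ran from -0.53 to 0.86, and the highest of these came from dim signals of 143.8 in spheroids and 79.3 in monolayer. RAB9A, which acts in retrieval from late endosomes to the Golgi, was at 2893 in spheroids and 3539 in monolayer (-0.29). RAB38, of lysosome-related organelles, had 1082 in spheroids and 1114 in monolayer (-0.04), and RAB24, linked to autophagy, 438.4 and 386.8 in the same order (0.18).

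**Figure D3:**
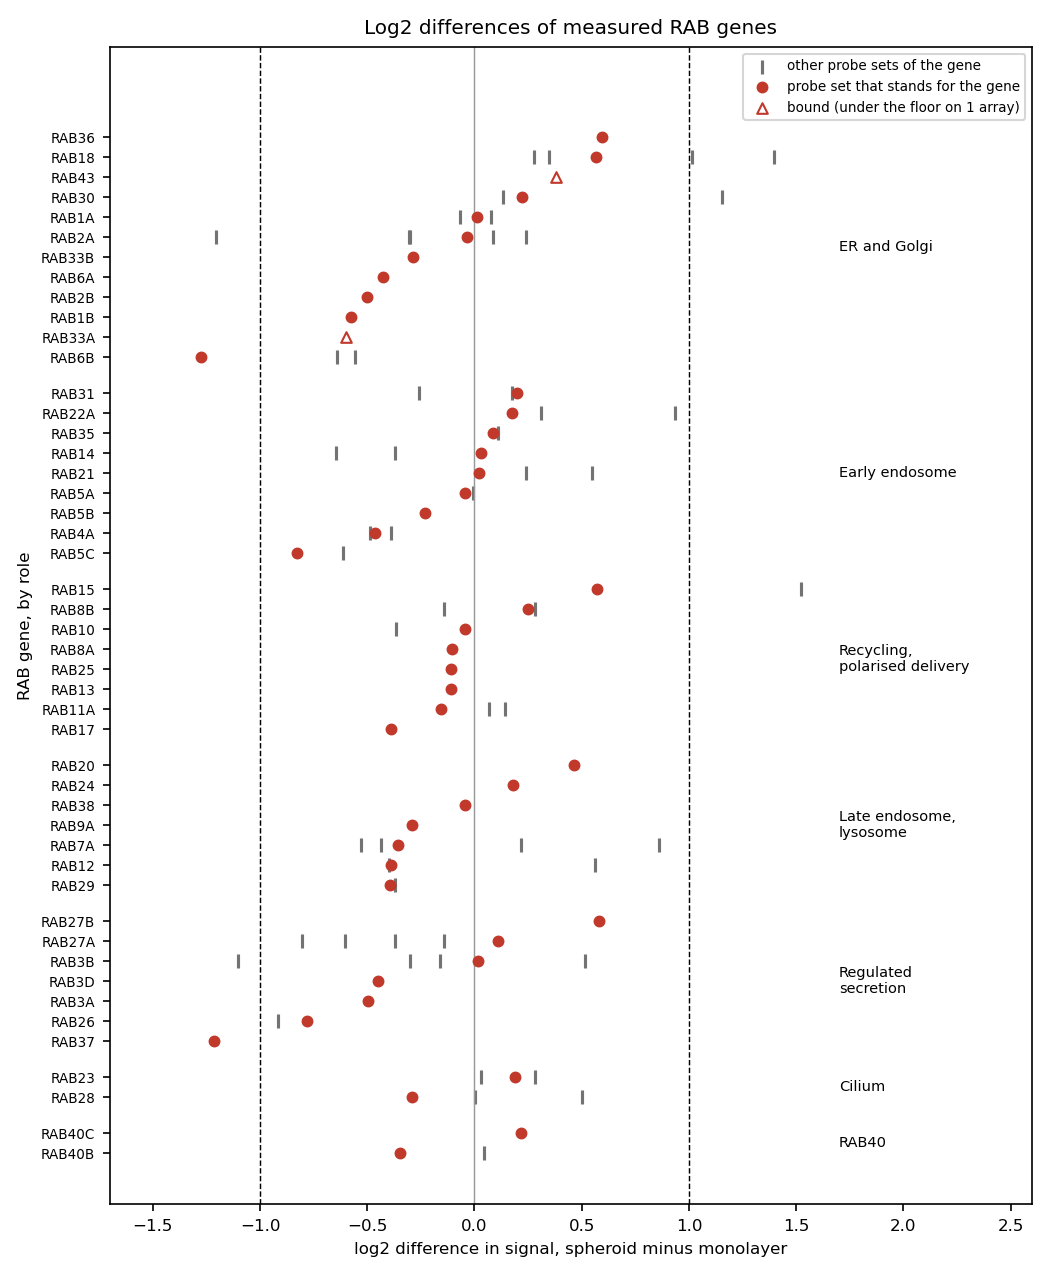
Log2 difference in signal, spheroid minus monolayer (x axis), of the 47 measured RAB genes (y axis, grouped by role), with a red point for the brightest probe set, grey ticks for other measured probe sets, open triangles for bounds and dashed lines at 2-fold. Only RAB6B and RAB37 have a red point past a dashed line, and several genes have grey ticks on both sides of 0.

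The RAB genes of regulated secretion, which bring granules and vesicles to the plasma membrane for release, had the lowest median of the larger groups, at -0.45 on the log2 scale, with 3 higher and 4 lower of 7 measured. RAB37, known from secretory granules of mast cells, had a signal of 97.9 in spheroids and 226.9 in monolayer, 2.32-fold lower (-1.21). It rests on 1 probe set, it was at -0.97 on the spike-in scale, short of 2-fold, and its spheroid signal was not far above the olfactory receptor level of 84.7. RAB26, which acts in granule maturation in gland cells, was at 331.9 in spheroids and 569.9 in monolayer, 1.72-fold lower (-0.78), and its other probe set was lower too (-0.91).

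RAB27B ran against them. This RAB, which with RAB27A docks granules and exosome-bearing endosomes at the plasma membrane, had a signal of 762.7 in spheroids and 509.8 in monolayer, 1.496-fold higher (log2 difference 0.58). Its other 2 probe sets were under the floor on both arrays. RAB27A was at 674.1 in spheroids and 623.9 in monolayer (0.11), yet its 4 other probe sets were all lower, between -0.14 and -0.81, so that most of its probe sets oppose the one that stood for it.

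RAB3 genes, the RABs of synaptic and endocrine exocytosis, were level or lower. RAB3B was at 1144 in spheroids and 1130 in monolayer (log2 difference 0.02), with other probe sets from -1.10 to 0.52. The lowest of them read 165.4 in spheroids and 355.6 in monolayer. RAB3D, known from exocrine granules, had 1017 in spheroids and 1387 in monolayer (-0.45), and RAB3A 164.2 in spheroids and 231.5 in monolayer (-0.50).

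The ciliary and RAB40 members differed little. RAB23, which restrains Hedgehog signalling, was at 1528 in spheroids and 1339 in monolayer (log2 difference 0.19), with all 3 probe sets higher. RAB28, which has a role at the cilium and in photoreceptors, was at 1682 in spheroids and 2061 in monolayer (-0.29), and its other probe sets gave 0.00 and 0.50. RAB40B and RAB40C, which carry a SOCS box and serve ubiquitin ligases, lay on opposite sides, RAB40B with 1770 in spheroids and 2249 in monolayer (-0.35) and RAB40C with 917.7 in spheroids and 789.9 in monolayer (0.22).

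How far probe sets of one RAB gene matched could be read for 26 genes with 2 or more of them measured on both arrays. In 14 every probe set had the same sign and in 12 they had both signs, and the median range within a gene was 0.49 on the log2 scale. Past 2-fold by at least 1 such probe set were RAB15, RAB18 and RAB30 on the higher side, and RAB6B, RAB2A and RAB3B on the lower. RAB2A, singled out for this after its values were seen, had 1 of 6 probe sets at 203.1 in spheroids and 468.9 in monolayer (-1.21). No gene had probe sets past 2-fold in both directions. The 22 RAB genes with 1 probe set, RAB37 among them, have no such check.

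Within numbered families, whose members are close relatives, 12 pairs over 8 families could be compared, and 9 pairs had log2 differences that were apart by more than 0.41. Gaps of that size were common in any case: 475 of the 990 pairs that the 45 RAB genes form, or 48.0%, exceeded it, and the 12 pairs share members. The widest was RAB6A against RAB6B, apart by 0.85, but RAB6A's own probe set read only 68.4 in spheroids and 92.0 in monolayer, near the floor. RAB5A and RAB5C were apart by 0.78, RAB5B and RAB5C by 0.60, and RAB1A and RAB1B by 0.59. RAB2A was above RAB2B by 0.47, and RAB3B above RAB3D by the same 0.47. The gap between RAB40B and RAB40C was -0.56, that between RAB3A and RAB3B -0.51 and that between RAB27A and RAB27B -0.47, the first named being lower in each. Probe sets of paralogues can differ as those of one gene do, and 18 RAB genes were represented by a probe set of a kind that may match several transcripts.

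**Figure D4:**
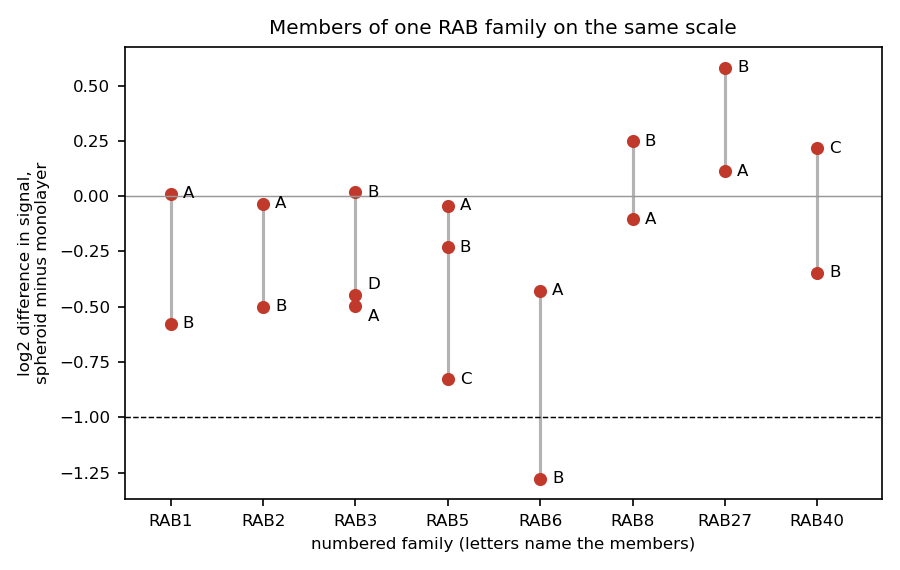
Log2 difference in signal, spheroid minus monolayer (y axis), of RAB genes that share a number (x axis), with a point for each member above the floor on both arrays, its letter beside it, and a dashed line at 2-fold lower. RAB1B, RAB2B, RAB5C and RAB6B lie at the low end of their families, and RAB27B and RAB40C at the high end of theirs.

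The genes that modify, load, turn off or bind RAB proteins were set beside them from lists of 134 genes, of which 118 were measured. At least 2-fold higher in spheroids were 2, where 2.53% of all measured genes were, and at least 2-fold lower 5, where 3.08% of all were. On the spike-in scale, which moves every gene up by 0.25, the counts were 7 higher and 3 lower. Their balance depends on the scale, as it can for any set of genes, and shares over all genes on that scale are not given here. As deposited, the median log2 difference was -0.06, against -0.05 over all measured genes. Of the genes of prenylation, escort and extraction, 5 of 7 measured were higher, where 5140 of 11555 genes above the floor on both arrays were. Their median was 0.08, and 0 passed 2-fold. RABGGTB, the beta subunit of the enzyme that puts geranylgeranyl on RAB proteins, had 5056 in spheroids and 2941 in monolayer, 1.72-fold higher (0.78). Its partner RABGGTA was level, at 329.1 in spheroids and 322.7 in monolayer (0.03).

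CHML, a RAB escort protein, had 2433 in spheroids and 1382 in monolayer, 1.76-fold higher (log2 difference 0.82), and its other probe set gave 1.58. The gene lies within OPN3 in RefSeq, and the array does not show which transcript was bound. GGPS1, which makes the geranylgeranyl donor, was at 1742 in spheroids and 1440 in monolayer (0.27). GDI2, which extracts RAB proteins from membranes, was level at 10133 in spheroids and 10370 in monolayer (-0.03).

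The other prenyltransferases and the enzymes that finish CAAX ends serve other small GTPases and a few RABs. They were higher in 6 of 6, with a median log2 difference of 0.26, where 5140 of 11555 genes above the floor on both arrays were higher. ZMPSTE24, a CAAX protease, had 6146 in spheroids and 4000 in monolayer (0.62), and PGGT1B, the beta subunit of geranylgeranyl transferase I, 2009 in spheroids and 1387 in monolayer (0.53). The remaining 4 lay between 0.11 and 0.33, and other probe sets of FNTA and ICMT were lower. RCE1, 1 of these 4, read 84.8 in spheroids and 78.5 in monolayer, about the olfactory receptor level of 84.7. On the spike-in scale each of these differences is larger by 0.25, as for every gene.

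Among exchange factors, which turn RAB proteins on, 31 were measured with a median log2 difference of -0.12. RIN1, an exchange factor for RAB5, was at 78.8 in spheroids, under the olfactory receptor level, and 205.7 in monolayer, 2.61-fold lower (-1.38). DENND1B, which acts on RAB35, was at 430.3 in spheroids and 190.7 in monolayer, 2.26-fold higher (1.17), but its 4 probe sets ran from -0.02 to 1.17. RAB35 itself was at 921.4 in spheroids and 867.5 in monolayer (0.09).

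The list of GAPs and their kin held 36 measured genes, with a median log2 difference of -0.06. Activity on a RAB protein is not established for every one of them. TBC1D10A, a GAP for RAB27A and RAB35, was at 143.8 in spheroids and 67.3 in monolayer, near the floor (2.14-fold higher, 1.09). SGSM1, of the RUN and TBC domain family, was at 94.7 in spheroids and 209.6 in monolayer, 2.21-fold lower (-1.15), with another probe set at 0.37.

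Effectors, the proteins that bind active RABs, had the largest single difference of these lists. Of 38 measured, 0 were higher by 2-fold or more and 3 lower by as much, with a median log2 difference of -0.15. SYTL3, a synaptotagmin-like effector of RAB27, had 581.4 in spheroids and 2850 in monolayer, 4.90-fold lower (-2.29), from 1 probe set. SYTL4, the RAB27 effector also called granuphilin, was at 154.5 in spheroids and 316.4 in monolayer, 2.05-fold lower (-1.03). RPH3A, which binds RAB3, was under the floor in spheroids at 24.4, against 137.7 in monolayer, at least 2.20-fold lower. Of the other synaptotagmin-like genes, SYTL1 gave 0.43 and SYTL2 0.11, and SYTL5 was under the floor on both arrays.

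**Figure D5:**
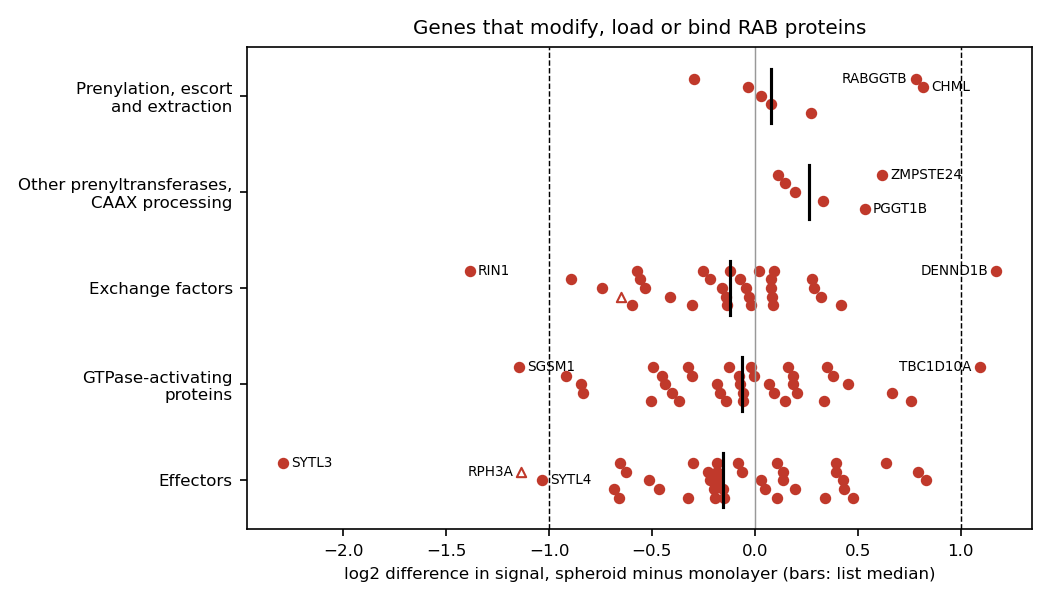
Log2 difference in signal, spheroid minus monolayer (x axis), of 118 measured genes that modify, load, turn off or bind RAB proteins (y axis, by list), with a point for each gene, open triangles for bounds, black bars for list medians and dashed lines at 2-fold. SYTL3 lies farthest from 0, at -2.29, and all points of the second list lie above 0.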

How the data were processed

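RNA of 1 HT-29 spheroid culture and 1 monolayer culture was hybridised to Affymetrix Human Genome U133 Plus 2.0 arrays. Per the labels, Affymetrix Expression Console was used, and the authors deposited its MAS5 signals, which are intensities on a linear scale. The table used here holds no detection calls. Duplicates are described in the methods, but 1 array for each condition was used here, and the number of arrays limits the precision. The methods also name Affymetrix Microarray Suite. The genome build is not given in the sources used here.

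Computation used Python 3.11.15, numpy 2.4.6 and pandas 2.3.3, and plots matplotlib 3.10.9. Through the platform annotation 41097 probe sets belong to 1 gene and 41043 of them matched a current symbol in the GRCh38.p14 RefSeq table, while 1801 with several genes and 11777 outside the annotation were given no name. Each gene was read from its brightest probe set (by mean log2 signal), the floor was the 50th percentile of all signals, and 2-fold was the threshold, as in the methods. The computation was tested on simulated data. The members and gene lists were chosen with earlier results of these data known.

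Named are RAB genes past 2-fold, up to 3 per role with the largest difference among those above the floor on both arrays, those with another probe set of opposite sign and at least 0.5 (log2), and in each other list the genes past 2-fold or else the top 2. Further RAB genes are named to complete a group, after their values were seen. Protein sequences were not used here. Promoters are the 250 bases before each start in the table of RefSeq promoters. RAB12, RAB15, RAB1A, RAB20, RAB26, RAB2A, RAB33A, RAB33B, RAB36, RAB37, RAB38 and RAB39B have no entry in that table. RefSeq does list them as genes. Alternatives were 4 other scales (median, quantile, GAPDH, hybridisation spike-ins), no floor, a floor at either the 75th percentile or the level under which 95% of olfactory receptor probe sets lay, the median over a gene's probe sets, its probe set with the largest difference, only probe sets without _x_at or _s_at, a pseudocount of 15.9 (the 25th percentile) and thresholds of 3-fold and 1.5-fold.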

Additional observations from a re-analysis of the deposited data

How the results depend on the processing

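Counts of RAB genes past 2-fold moved with low signals and with the choice of probe set. The count at least 2-fold higher in spheroids, 0 as reported, was 1 with no floor, with the median of probe sets, without _x_at or _s_at probe sets, with the pseudocount and at 1.5-fold, and 3 with the most extreme probe set. The count at least 2-fold lower, 2 as reported, was 1 on the spike-in scale and with the median of probe sets, 0 with the 75th percentile floor and at 3-fold, 4 with the most extreme probe set and with the pseudocount, 5 at 1.5-fold and 6 with no floor. RAB6B was at -1.03 on the spike-in scale and -0.64 with the median of probe sets. With the 75th percentile floor its -0.36 is only a bound, because its spheroid signal was under that floor. RAB37 was at -0.97 on the spike-in scale and had no value with the 75th percentile floor. The RAB median of -0.11 was -0.18 with median scaling, where all measured genes were at -0.13, and 0.14 on the spike-in scale, where all measured genes were at 0.18. Under the other settings it moved by less than 0.06.

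For the genes that modify or bind RAB proteins, the higher count, 2 as reported, was 7 on the spike-in scale, 0 with the 75th percentile floor and at 3-fold, 1 with the olfactory floor and with the median of probe sets, 12 with the most extreme probe set, 4 without _x_at or _s_at probe sets and 10 at 1.5-fold. The lower count, 5 as reported, was 3 on the spike-in scale and 1 with the 75th percentile floor and at 3-fold. It was 2 with the median of probe sets, 7 with the most extreme probe set and 16 at 1.5-fold. It was 4 with the olfactory floor, without _x_at or _s_at probe sets and with the pseudocount. With no floor the higher count was 3 and the lower count 6. Shares over all genes are given here only as deposited, so changes of these counts on other settings cannot be called particular to RAB or RAB-binding genes. The number of measured RAB genes itself was 40 with the 75th percentile floor, 46 with the olfactory floor, 38 without _x_at or _s_at probe sets and 57 with no floor. Of 245 single values of named RAB genes under 11 settings, 233 moved by less than 0.41. Many could not move by more, so this count does not show that the values are stable. A change of scale moved a value by 0.25 at most, and a gene with 1 probe set cannot change with the choice of probe set. The opposite sign was found for 13 values, over RAB3B, RAB5B, RAB7A, RAB12, RAB14, RAB27A and RAB28. None of them had been past 2-fold. The causes were not tested. No paired analysis was possible because each condition has 1 array. Signals near the floor limit what RAB37, RAB6A, RAB33A and RAB43 can show.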

Other observations

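Some probe sets are assigned to a RAB gene together with another gene and were left out of the family by its rule. There were 11, of which 7 passed the floor on both arrays and 1 was past 2-fold. RAB6A shares its brighter probe sets with RAB6C or RAB6D, near-identical copies whose transcripts cannot be told apart here. These probe sets read 7155 in spheroids and 6860 in monolayer (log2 difference 0.06), 5643 in spheroids and 5327 in monolayer (0.08), and 256.4 in spheroids and 111.9 in monolayer (1.20). The probe set of RAB6A alone, at 68.4 in spheroids and 92.0 in monolayer, was far dimmer than the others on the same arrays. RAB4B, a recycling RAB whose own probe set was under the floor, shares 3 probe sets above it with a readthrough transcript of MIA and RAB4B, and they gave 0.81, -0.67 and -0.27. RAB43 shares 1 with a readthrough transcript of ISY1, at 275.2 in spheroids and 263.2 in monolayer (0.06). RAB34, a ciliary and Golgi RAB, has only probe sets shared with NARR, and both were under the floor on both arrays.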
